A study of Homo sapiens with 4 samples.

Results

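The epidermal growth factor receptor (EGFR), 3 genes of its ligands (AREG, EREG and HBEGF) and 3 genes of the response downstream of it (EGR1, DUSP1 and DUSP6) were examined for binding of ATF3, a bZIP transcription factor that cells induce under stress. Binding was mapped by CUT&Tag, in which an antibody (here against ATF3) brings a transposase to chromatin that cuts and tags the DNA nearby. The cells were SW480, an established human colorectal adenocarcinoma line, and they spent 24 h in cystine-restricted medium (2 libraries) or in full medium (2 libraries). Cystine, the oxidised dimer of cysteine, is the main source of cysteine for cells in culture. Peaks of the 4 deposited lists that shared at least 1 bp were merged into regions, and a region was taken if it overlapped a gene span (hg19) or the 20 kb on either side of it. This gave 31 regions of 44826 in all, in windows of 527.0 kb. Whether the 2 libraries of a medium came from separate cultures is not in the labels, so the p-values rest on a spread between libraries that may be technical. All libraries used here were made with the ATF3 antibody, and there was no input or IgG library among them. A single cell line was used. In these bulk libraries, more signal per cell and signal in more cells cannot be told apart.

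EGFR is a receptor tyrosine kinase of epithelial cells. Its ligands are made as membrane proteins and released by shedding, and the bound receptor signals through RAS, RAF and MEK to the kinase ERK. ERK induces immediate early genes such as EGR1, and is itself switched off by dual-specificity phosphatases (DUSPs) that its own activity induces. In the gut, EGFR ligands support the growth of the epithelium, and amphiregulin and epiregulin (the products of AREG and EREG) are often made by colorectal tumours. ATF3 and its partners bind the cyclic AMP response element TGACGTCA and AP-1 elements such as TGACTCA and TGAGTCA. The AP-1 forms are covered by the broader pattern TGANTCA, in which N is any base.

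The upstream sequences of 4 of the genes show where these elements stand at start sites with different ATF3 signal: DUSP1, with the highest start-site peak of the 7 genes, AREG, with no peak at all, EGR1, whose peaks lay mainly further upstream, and EREG, with a start-site peak under cystine restriction alone. Each is the 250 bases before the start site, 5′ to 3′ on the coding strand, from RefSeq (GRCh38.p14). Capitals mark the motif TGACGTCA, the shorter motif TGACGT on either strand, and the CArG boxes of serum response factor. These motifs were chosen after the sequences had been seen.
DUSP1: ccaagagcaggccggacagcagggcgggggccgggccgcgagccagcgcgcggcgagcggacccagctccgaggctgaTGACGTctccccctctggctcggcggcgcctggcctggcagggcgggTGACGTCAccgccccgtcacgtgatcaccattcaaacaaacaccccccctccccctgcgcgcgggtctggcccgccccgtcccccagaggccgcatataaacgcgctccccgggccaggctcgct
AREG: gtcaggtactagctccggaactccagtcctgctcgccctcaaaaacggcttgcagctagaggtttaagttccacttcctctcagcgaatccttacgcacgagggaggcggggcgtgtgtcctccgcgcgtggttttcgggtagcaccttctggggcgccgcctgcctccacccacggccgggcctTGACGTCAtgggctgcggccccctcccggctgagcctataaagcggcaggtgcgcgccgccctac
EGR1: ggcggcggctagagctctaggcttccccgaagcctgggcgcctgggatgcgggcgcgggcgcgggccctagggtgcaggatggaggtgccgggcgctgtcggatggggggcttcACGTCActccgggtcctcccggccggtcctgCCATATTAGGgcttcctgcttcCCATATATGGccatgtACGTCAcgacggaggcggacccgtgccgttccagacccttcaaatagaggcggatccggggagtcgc
EREG: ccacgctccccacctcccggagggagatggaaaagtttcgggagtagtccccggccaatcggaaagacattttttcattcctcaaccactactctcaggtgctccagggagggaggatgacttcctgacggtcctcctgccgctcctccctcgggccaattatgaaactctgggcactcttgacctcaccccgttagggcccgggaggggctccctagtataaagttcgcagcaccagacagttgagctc
DUSP1 and AREG each had 1 full TGACGTCA, beginning at −125 in DUSP1 and at −65 in AREG, in bases from the start. The motif was present in 1.85% of the 35116 RefSeq promoter sequences of 300 bases, which run from 250 bases before to 50 after the start. DUSP1 had a further TGACGT at −172. EGR1 had TGACGT on the opposite strand at −136 and −67, on either side of 2 CArG boxes at −105 and −83. TGACGT, which every TGACGTCA contains, was present in 7.98% of the promoter sequences on either strand, and the CArG box in 1.29%. The 300 bases at EREG, HBEGF and DUSP6 held none of the motifs searched, which also included TGANTCA (present in 7.71% of promoters) and TGATGNAA (3.62%). EGFR had 2 promoter sequences, of which the first listed (chr7:55018767-55019066 in GRCh38.p14) held none of the motifs. The second (chr7:55109589-55109888) lay far downstream of the first, and held TGANTCA at −232 and −136 from its own start. A match describes the letters of these windows and is not evidence of a bound site.

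Of the 31 regions, 11 had a peak in all 4 libraries, or 35.5%, against 23.0% of all regions. A further 5 were gained, that is, both cystine-restricted libraries listed them and no full-medium library did. That is 16.1% of the 31, and 12.7% of all regions were gained. The count moved with the lists: 2 of 18 regions were gained with a minimum −log10 q of 5 (16.2% of all regions) and 1 of 21 with equal numbers of top peaks (6.59% of all). Without cystine-restricted replicate 1 or 2, which leaves 1 library to define a gain, 10 of 28 and 11 of 29 were gained (35.5% and 40.8% of all). None was lost (listed in both full-medium libraries alone), where 0.386% of all regions were. The other 15 had mixed patterns, and 10 of them were listed by 1 library, 8 by a cystine-restricted and 2 by a full-medium library. The cystine-restricted libraries listed 26 and 25 peaks at the 7 genes and the full-medium libraries 15 and 19, with means of 25.5 ± 0.707 under cystine restriction and 17 ± 2.83 in full medium (SD, n = 2 each). The groups did not overlap. The ratio was 1.5, against 1.73 for all peaks. An exact permutation test, two-sided, gave p = 0.33, which is the smallest possible with 2 libraries against 2. With an equal number of top peaks from each library the ratio was 0.912.

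Heights below are summit pileups (overlapping tags at the peak's highest point, recovered from the deposited fold and p-value) as multiples of the library's genome background. That background is proportional to the tags kept and in tags was 1.298 and 1.084 in cystine-restricted replicates 1 and 2, against 1.106 in the first and 1.318 in the second full-medium library. Heights were compared between the media with limma over all 10331 regions listed in all 4 libraries. A region was called where its p, adjusted by Benjamini-Hochberg over these regions, was under 0.05. No exon annotation of hg19 was used, so exons and introns are not assigned. Distances are from the start site, positive in the direction of transcription, to the median of the libraries' summits.

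**Figure D1:**
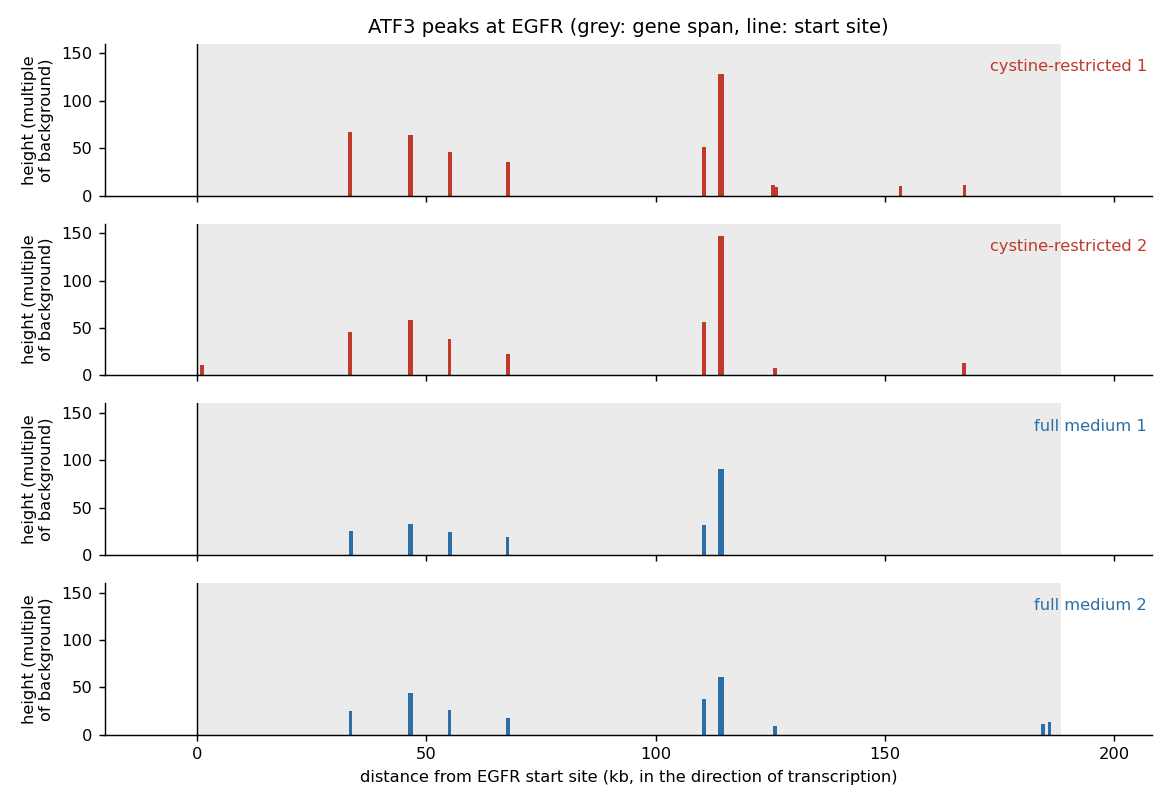
ATF3 peaks at EGFR in the 2 cystine-restricted libraries (upper panels) and the 2 full-medium libraries (lower panels), with distance from the start site in kb on the x axis and summit height as a multiple of the genome background on the y axis; narrow peaks are drawn wider than they are. The same 6 regions carried the high peaks in each library, from 33.6 to 114.1 kb past the start, and none of them was at the start site itself.

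EGFR held 13 regions in its window of 228.3 kb, 6 of them in all 4 libraries, and all 13 lay within the gene span. The highest was at +114.09 kb (chr7:55200313-55201739). It stood at 128 and 147 times background in the cystine-restricted libraries, against 90.4 and 60.7 times in the full-medium libraries. It was above 98.7% and 99.1% of the peaks of its list under cystine restriction and above 97.9% and 95.9% in full medium, ranked by −log10 p. Its summit fell within 11 bp in the 4 libraries. The log2 height averaged 7.1 ± 0.14 under cystine restriction and 6.21 ± 0.41 in full medium (SD, n = 2 each), a difference of 0.89 ± 0.17 (SE, limma adjusted p = 5.5e-05). Of all 10331 regions in all 4 libraries, 43.2% were called higher. With each library centred on its median over those regions, this one was not called (limma adjusted p = 0.15). On the deposited fold over the local background its log2 difference was 0.19 (limma adjusted p = 0.52).

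The EGFR region with the largest change of the 11 was at +33.64 kb (chr7:55119659-55120651). It stood at 67.0 and 46.1 times background under cystine restriction and at 25.3 and 25.0 times in full medium. The full-medium libraries were nearly equal and the cystine-restricted ones further apart, but both were above them. The difference was 1.14 ± 0.22 on the log2 scale (SE, limma adjusted p = 7.7e-05), or 2.21-fold, and was larger than that of 93.4% of all regions in all 4 libraries. The region was not called with centring (limma adjusted p = 0.059). On the fold over the local background the log2 difference was 0.65 (limma adjusted p = 0.058).

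The other 4 EGFR regions in all 4 libraries were also called higher, where 43.2% of all 10331 such regions were. At +46.26 kb (chr7:55132847-55133906) heights were 64.0 and 58.1 times background under cystine restriction and 32.5 and 44.0 times in full medium. At +55.10 kb (chr7:55141390-55142247) they were 46.2 and 38.7 times under cystine restriction and 24.4 and 25.8 times in full medium. The libraries of a medium lay close together at +55.10 kb, whereas the full-medium libraries were spread at +46.26 kb. At +67.72 kb (chr7:55154081-55154901) they were 35.4 and 23.1 times under cystine restriction and 19.0 and 17.4 times in full medium, and the summits were spread over 369 bp. At +110.74 kb (chr7:55196922-55197587) they were 51.6 and 56.3 times under cystine restriction and 31.6 and 37.9 times in full medium. In each of these 4 regions both cystine-restricted libraries were above both full-medium ones, which held for 72.8% of all such regions. The differences were 0.64 to 0.75 on the log2 scale, with limma adjusted p of 0.0059 to 0.042. With each library centred on its median over all such regions, none of the 4 was called (limma adjusted p of 0.66 to 0.89). The regions at +110.74 and +114.09 kb are close neighbours, and their local background was 18.7 and 18.6 tags in cystine-restricted replicate 1 and 10.8 and 10.4 tags in full-medium replicate 1.

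The remaining 7 regions of EGFR were low, between 8.3 and 13.7 times background. The region nearest the start (+0.96 kb, chr7:55087642-55087975) was listed by cystine-restricted replicate 2 alone, at 11.1 times background. The gained region at +167.38 kb (chr7:55253688-55254203) stood at 11.6 and 12.9 times background under cystine restriction. A region at +125.99 kb had 9.25 and 8.3 times under cystine restriction and 9.10 times in full-medium replicate 2. Its height did not separate the media. Cystine-restricted replicate 1 alone listed regions at +125.51 and +153.38 kb, and full-medium replicate 2 alone listed the regions at +184.37 and +185.82 kb near the gene's end.

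**Figure D2:**
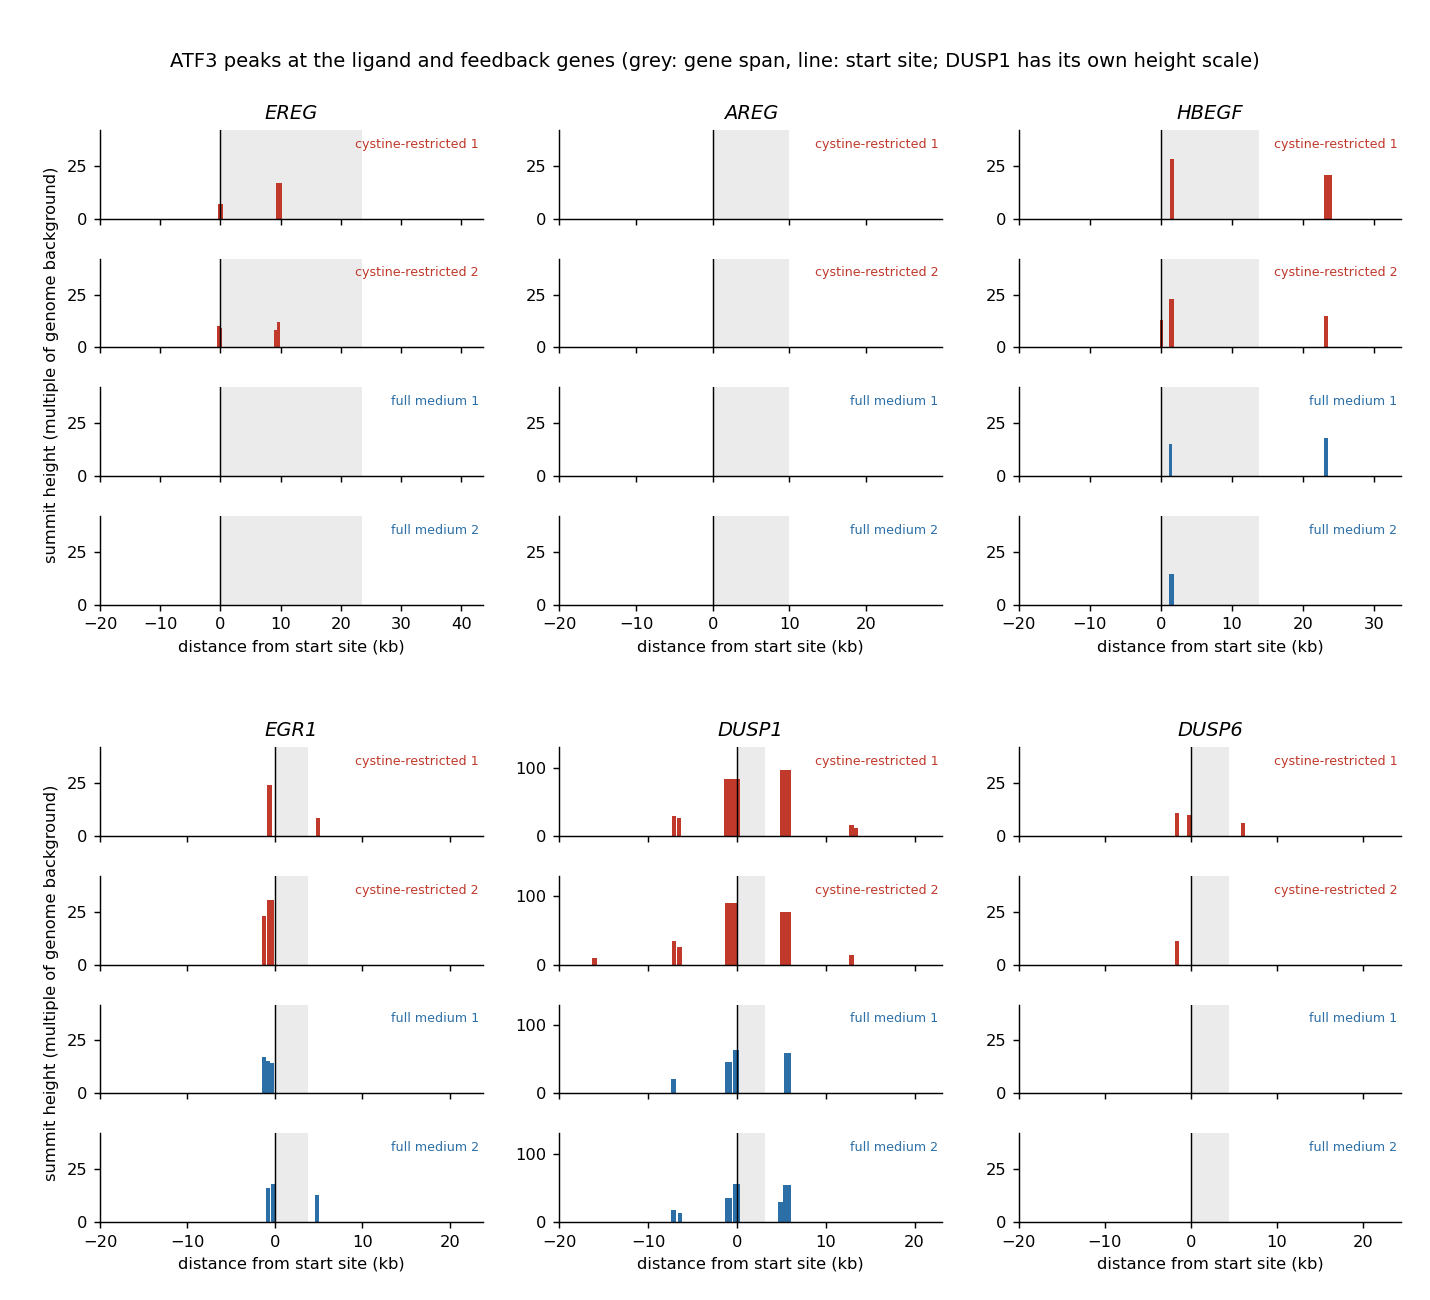
ATF3 peaks at the ligand genes (upper row) and at EGR1, DUSP1 and DUSP6 (lower row), in the 2 cystine-restricted libraries above the 2 full-medium libraries; the x axis is distance from the start site in kb and the y axis summit height as a multiple of the genome background, with narrow peaks drawn wider than they are. EREG and DUSP6 had peaks under cystine restriction alone, AREG had none, and the DUSP1 peaks reached 97.1 times background.

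Among the ligands, EREG had peaks under cystine restriction only in these lists, and both of its regions were gained. The start-site region (chr4:75230407-75231179) spanned the 250 bases printed above and stood at 6.93 and 10.1 times background under cystine restriction, or 9 and 11 tags. Each cystine-restricted library listed 2 separate peaks there, with summits at −350 and 188 bp from the start in replicate 1 and at −352 and −72 bp in replicate 2. One summit of each library thus fell at the same place and the other did not. The region at +9.62 kb (chr4:75239995-75241072), inside the gene, stood at 17 and 12.0 times under cystine restriction, or 22 and 13 tags. It was the highest of the 5 gained regions in replicate 1, while in replicate 2 the gained regions of DUSP1 and EGFR were higher. The full-medium lists reached down to 6.33 and 5.31 times background elsewhere in the genome, so peaks of these heights could be listed there where the local background was low. A missing peak says only that the caller's criteria were not met, and is no measurement of absent binding.

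AREG, the neighbour of EREG, had no peak in any library within its window of 49.9 kb (chr4:75290853-75340726). The nearest regions were 30.4 kb before the gene, listed in both cystine-restricted libraries and full-medium replicate 2, and 77.0 kb after it, listed in both cystine-restricted libraries. The AREG promoter printed above, with its TGACGTCA, therefore lay in a stretch of 117.2 kb without a listed peak. The hg19 assembly carries a near-identical second copy of this gene under the name AREGB, which RefSeq now lists as a synonym of AREG. How reads that match both copies were handled is not stated, so the absence of peaks at AREG is uncertain.

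HBEGF, which encodes heparin-binding EGF-like growth factor, had 1 region in all 4 libraries, at +1.40 kb (chr5:139724366-139725057). It stood at 28.5 and 23.1 times background under cystine restriction and at 15.4 and 14.4 times in full medium. The groups did not overlap, and the difference was 0.79 ± 0.27 on the log2 scale (SE, limma adjusted p = 0.019). The summit of cystine-restricted replicate 1 lay at +1.72 kb and the others at +1.36 to +1.40 kb. A peak over the start itself, at 12.9 times background, was listed by cystine-restricted replicate 2 alone. The region at +23.20 kb, past the gene's end, stood at 20.8 and 14.8 times under cystine restriction and at 18.1 times in full-medium replicate 1, which lay between them.

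Of the genes downstream of ERK, DUSP1 had the most regions per length, and was singled out for this after its values were seen. Its product dephosphorylates MAP kinases in the nucleus. It held 7 regions in 43.1 kb, or 16.2 per 100 kb, against 5.69 at EGFR and 1.52 over chromosomes 1 to 22 and X. These spans are unlike, since the EGFR window is 228.3 kb and the last value runs from the first to the last region of each chromosome. The windows nearest in length, EGR1 (43.8 kb) and DUSP6 (44.5 kb), held 3 regions each. The start-site region (chr5:172197910-172199633) stood at 83.2 and 90.4 times background under cystine restriction and at 63.3 and 56.1 times in full medium. The difference was 0.54 ± 0.17 on the log2 scale (SE, limma adjusted p = 0.011), the smallest of the 11 regions. The highest summits lay at −115 and −117 bp under cystine restriction and at −114 and −117 bp in full medium. In RefSeq the TGACGTCA printed above begins at −125. The gene is 3111 bp long in the hg19 span and 3100 bp in RefSeq, so the 2 start sites may differ. The lengths do not bound such a shift, and the distance between the motif and the summit was not measured. Both full-medium libraries listed a second peak with its summit at −982 and −955 bp, in a stretch that the cystine-restricted libraries listed as part of a single broad peak.

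The other high DUSP1 region, at +5.62 kb and past the gene's end (chr5:172192088-172193383), stood at 97.1 and 77.5 times background under cystine restriction and at 59.6 and 53.9 times in full medium, a difference of 0.61 ± 0.18 on the log2 scale (SE, limma adjusted p = 0.0053). Upstream, the region at −7.14 kb (chr5:172205026-172205523) stood at 29.3 and 35.1 times under cystine restriction and at 20.8 and 17.4 times in full medium, with a difference of 0.75 ± 0.25 (SE, limma adjusted p = 0.015). A region beside it, at −6.42 kb, was listed in 3 libraries, at 27.0 and 25.8 times under cystine restriction and at 12.9 times in full-medium replicate 2. The gained region at +12.91 kb (chr5:172185185-172185391) stood at 15.4 and 14.8 times under cystine restriction. The 2 remaining regions, at +13.37 and −16.07 kb, were each listed by 1 cystine-restricted library, at 12.3 and 10.1 times.

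DUSP6, whose product is a cytoplasmic phosphatase specific for ERK, was listed under cystine restriction only. The gained region at −1.72 kb (chr12:89747709-89748068) stood at 10.8 and 11.1 times background under cystine restriction, or 14 and 12 tags. The region next to the start, at −0.21 kb, and one at +6.10 kb were listed by cystine-restricted replicate 1 alone, at 10.0 and 6.16 times. In both cystine-restricted lists the gained region ranked low, above 14.7% and 17.3% of peaks by −log10 p.

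EGR1, a zinc finger transcription factor of the immediate early response, had 3 regions and none gained. Its region in all 4 libraries (chr5:137800237-137801196) stood at 23.9 and 30.4 times background under cystine restriction and at 15.4 and 18.2 times in full medium. The groups did not overlap, and the difference was 0.69 ± 0.27 on the log2 scale (SE, limma adjusted p = 0.034). The libraries had a summit at −810 and −809 bp under cystine restriction and at −800 and −820 bp in full medium. Both full-medium libraries listed a second peak nearer the start. In replicate 2 this was the higher, at 24 tags against 21, with its summit at −352 bp. The height of full-medium replicate 2 given above is that of this second peak. The difference thus sets it against summits at −810, −809 and −800 bp in the other libraries. The 250 bases printed above were touched by the peaks of cystine-restricted replicate 2 and full-medium replicate 2, and not by those of the other libraries. Further upstream, at −1.20 kb, 1 library of each medium listed a peak, at 23.1 times background in cystine-restricted replicate 2 and 17.2 times in full-medium replicate 1. At +4.82 kb the order was the other way round, with 8.48 times in cystine-restricted replicate 1 and 12.9 times in full-medium replicate 2.

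**Figure D3:**
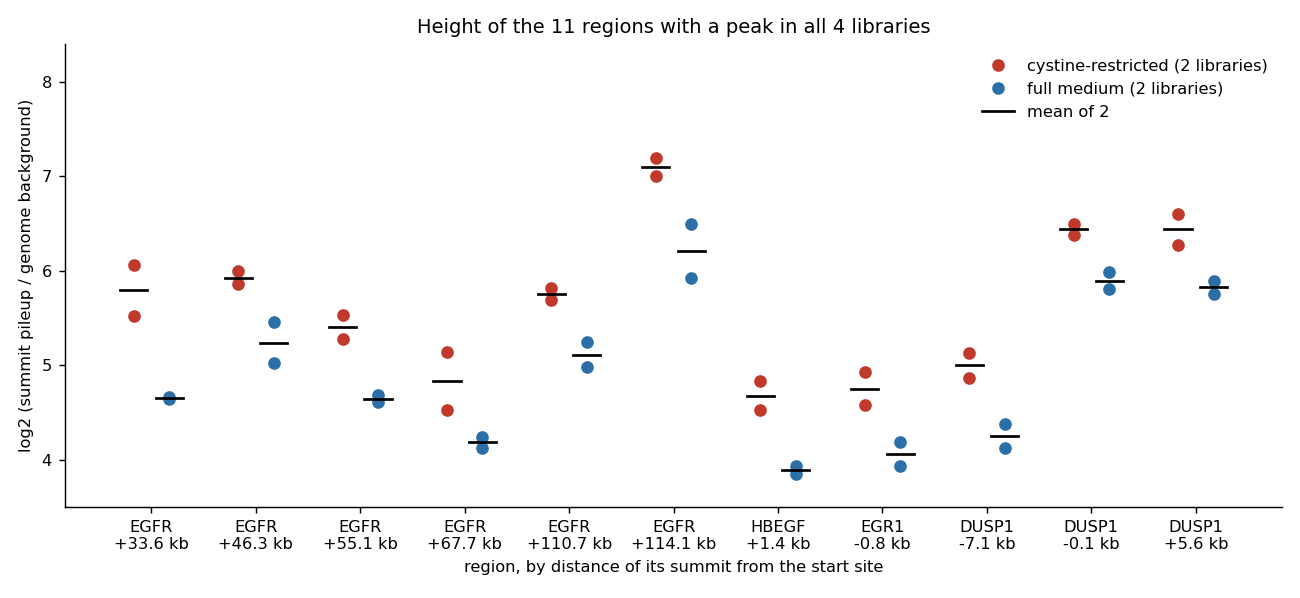
Log2 of summit pileup over genome background (y axis, a log scale that does not start at 0) at the 11 regions listed in all 4 libraries (x axis, gene and distance from the start site); each point is a library, red for cystine-restricted and blue for full medium, and the black line is the mean of 2. In each region both cystine-restricted points lie above both full-medium points.

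At all 11 regions in all 4 libraries the cystine-restricted libraries were above the full-medium ones without overlap, which held for 72.8% of all 10331 such regions, with 2.38% the other way round. All 11 were called higher by limma, where 43.2% of all such regions were called higher and 0.407% lower. The differences ran from 0.54 to 1.14 with a median of 0.69 on the log2 scale, against a median of 0.53 over all such regions (interquartile range 0.29 to 0.78). Without cystine-restricted replicate 1, 2 of the 11 were called, close to the 17.6% of all regions called in either direction. Without cystine-restricted replicate 2, 7 of the 11 were called (25.7% of all regions). Without full-medium replicate 1, 9 of the 11 were (42.7% of all), and without full-medium replicate 2, 8 of the 11 (26.3% of all). The 11 were also high regions in both media. Among regions with a mean pileup of at least 20 tags, which kept all 11, 56.3% were called in either direction. The median difference over those regions was 0.59. The median height of the 11 was 51.6 and 46.1 times background in the cystine-restricted libraries and 25.3 and 25.8 times in the full-medium libraries. Over all 10331 regions it was 27.0 and 25.8 times in the cystine-restricted libraries and 19.0 and 16.7 times in the full-medium libraries.

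The regions as a whole were also higher under cystine restriction. With each library centred on its median over all 10331 regions, the differences of the 11 ran from −0.03 (DUSP1 at the start) to 0.58 (EGFR at +33.64 kb), with a median of 0.12. None was then called by limma, 2 had an unadjusted p under 0.05 (EGFR at +33.64 and +114.09 kb), and the lowest adjusted p was 0.059. Over all regions 4.96% were then called higher and 4.28% lower, so the split between higher and lower calls depended on the centring. The local background around the 11 regions was also higher under cystine restriction at each of them, by 0.26 to 0.74 on the log2 scale (median 0.48). It was compared for the 11 regions alone, so these values do not show a trait particular to them. No input or IgG library was among those used, so this local background may include tags of the peaks themselves. That depends on the caller's options, which the processing notes do not state, and was not tested. With the deposited fold over this local background in place of the height, the median difference was 0.31 (all regions 0.21) and EGFR at +110.74 kb was at −0.01. By limma none of the 11 was called on this fold, 2 had an unadjusted p under 0.05 (EGFR at +33.64 kb and EGR1), and the lowest adjusted p was 0.058, where 4.96% of all regions were called higher and 0.029% lower. What the shift shared by all regions comes from was not tested.

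**Figure D4:**
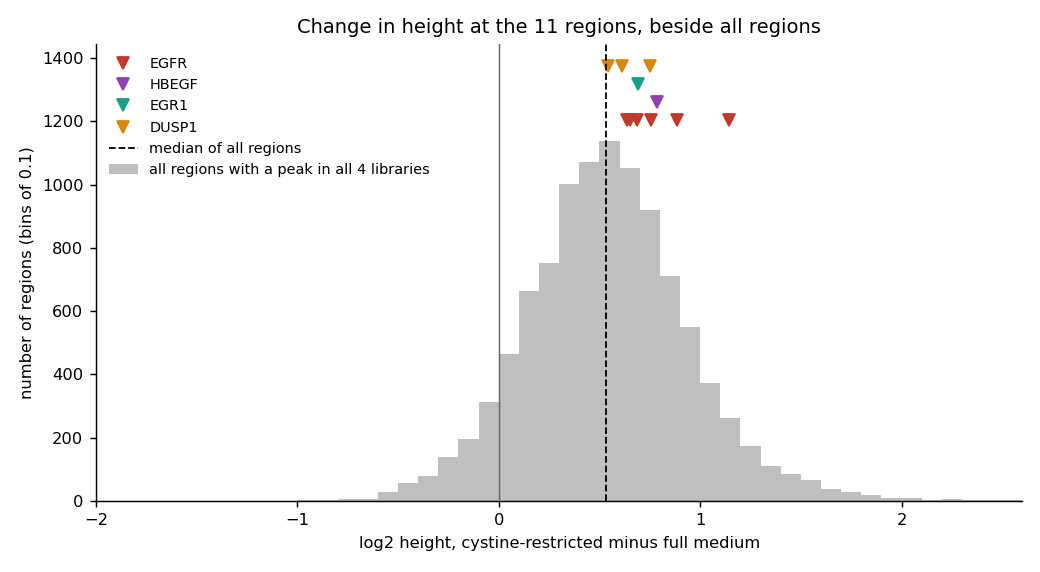
Number of regions (y axis) by the difference in log2 height, cystine-restricted minus full medium (x axis, bins of 0.1), for all 10331 regions in all 4 libraries (grey), with the 11 regions of EGFR, HBEGF, EGR1 and DUSP1 as triangles and the median of all regions as a dashed line. The 11 lie from 0.54 to 1.14, all above the median of 0.53, and EGFR at +33.64 kb is the farthest to the right.

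In the 11 regions the summits of the strongest peak of each of the 4 libraries were within 3 to 458 bp of each other (median 34 bp). They were within 50 bp, a limit chosen after the values were seen, in 6 of the regions. Of the 7 genes, 6 had a region within 1 kb of the start, and in 2 of these, DUSP1 and EGR1, it was listed in all 4 libraries. The regions in all 4 libraries had a median width of 960 bp and pileups of 17 to 166 tags, and the gained ones a median width of 516 bp and pileups of 9 to 22 tags. Merged regions widen as more libraries are joined, so these widths are not comparable as peak widths.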

How the data were processed

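ATF3 CUT&Tag peak lists of 4 libraries were used. The submitters' processing notes name hg19, MACS2 2.2.7.1, BWA 0.7.17, fastp 0.19.7 and bcl2fastq 2.17, with no options for the peak caller. The deposited lists, 1 per library, give each peak a fold enrichment (a ratio over the local background), −log10 p and −log10 q values and a whole-number score, all the authors' own. The lowest −log10 q was 1.30. From fold and p a whole-number summit pileup was recovered in 100% of peaks, reproducing −log10 p to within 0.1%. Depth is known only as the genome background, the lowest background of a list. The libraries listed 33838, 29607 (cystine-restricted), 17447 and 19132 (full medium) peaks on chromosomes 1 to 22 and X, and others were not used. Gene spans are those of the selection rule. For regions with several peaks of a library the highest pileup counted.

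Heights, log2 of pileup over genome background, were compared with limma 3.58.1 (R 4.3.3) with trend. Peak numbers were compared by an exact permutation test in Python 3.11.15 (scipy 1.17.1, numpy 2.4.6, pandas 2.3.3). Recovery and limma were tested on simulated data. The genes, lists, regions and tests were chosen with earlier results of these data known. The rule named all 7 genes, their start-site, highest, gained, lost and called regions. The alternatives tried were a minimum −log10 q of 5, equal numbers of top peaks, windows of 0 and 50 kb, reciprocal overlap of 50%, each library left out, the replicate number as a block, fold over local background, centring, a pseudocount of 1 tag and a mean pileup of at least 20 tags; centring with the block was added after the data were seen. A list of other pathway genes was not run, since no annotation of hg19 was used. Same-numbered libraries deviated from their media with a correlation of 0.01, and 2 numbers are too few to pair samples.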

Additional observations from a re-analysis of the deposited data

How the results depend on the processing

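Depth limits the low regions, since the lowest listed pileup was 6 or 7 tags in each library. The ratio of peaks at the 7 genes was 1.11 to 1.70 over the other alternatives and reversed, to 0.912, with equal numbers of top peaks, a setting that fixes the ratio of all peaks at 1. There were 2 gained regions of 18 with a minimum −log10 q of 5 (16.2% of all regions gained), 1 of 21 with equal numbers of top peaks (6.59%), 3 of 19 and 10 of 57 with 0 and 50 kb each side, and 6 to 11 of 28 to 31 with a library left out (17.8% to 40.8%), which loosens the definition. Lost regions numbered 0 to 2 with a library left out (0.944% to 6.57% of all regions) and 3 of 45 with a reciprocal overlap of 50% (1.43% of all; EGR1 at −0.81 kb, DUSP1 at −0.12 and −7.15 kb), where narrower full-medium peaks no longer match the wider cystine-restricted ones. The median log2 difference was 0.63 to 0.78 with a library left out, 0.31 with local fold enrichment and 0.12 with centring, with or without the replicate block. With a library left out, 1 medium has a lone library, which limma then takes to vary like the other 2. The number of regions called was 2 of 11 to 10 of 13 with a library left out (17.6% to 42.7% of all regions called), 0 with local fold enrichment (4.98%), 0 with centring (9.23%) and 1 of 11 with centring and the replicate block (10.1%; EGFR at +33.64 kb, limma adjusted p = 0.048). DUSP1 at −0.12 kb reversed to −0.027 with centring, with and without the block, and EGFR at +110.74 kb to −0.0118 with local fold enrichment. With the replicate block alone all 11 regions were called, where 44.7% of all regions were, and the median stayed at 0.69. The ratio of peaks was then 1.51, and the counts of gained, lost and common regions are the same by construction. The other alternatives (a −log10 q of at least 5, top peaks, pseudocount, mean pileup) changed no call of the regions they kept. Of all regions 51.9%, 53.4%, 41.7% and 56.3% were called in these settings, in that order, against 43.6% in the main one. With 0 and 50 kb each side, 9 of 9 and 13 of 15 regions were called (43.6% of all regions). For the remaining changes the cause was not tested.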
